A study of Mus musculus with 5 samples.

Results

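Neutrophil granule and alarmin genes were followed here as a gauge of neutrophils among CD11b+ cells sorted as macrophages. The rule takes genes by their names and sets no cut on a measured value. Members and the gene lists used below were, however, chosen with earlier results of these data known. The members are the alarmins S100a8 and S100a9 and the specific granule genes Lcn2, Ltf, Camp and Ngp. With them stand the primary granule genes Mpo and Elane, the secreted factor gene Retnlg and the receptor gene Csf3r. All members together are 10 of 18193 genes named on the arrays. Each of 9 had 1 probe set, a group of short probes read as 1 signal, and 0 of these probe sets carried several gene symbols. Retnlg was not analysed here, as no probe set carried its symbol. All 9 probe sets passed the filter on low signals and were tested.

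The cells came from subcutaneous plugs of Matrigel, a gelled matrix, in adult SCID mice of the Balb/c background aged 7 to 12 weeks. SCID mice lack nearly all B and T cells, and animals of both groups carried a transgenic T-cell receptor specific for the idiotype of the MOPC315 myeloma antibody. Plugs held either MOPC315 cells (tumoricidal group, 3 arrays) or an antigen-loss form of MOPC315 (control group, 2 arrays), and on day 8 the CD11b+ cells in them were sorted. The labels call the arrays biological replicates and do not say how many animals or plugs went into each. CD11b is carried by macrophages, monocytes and neutrophils alike, so the sort as described could hold all of them, and the labels name no gate against neutrophils.

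Neutrophils fill their granules in stages while they mature in the bone marrow. Promyelocytes make the primary granule proteins, among them myeloperoxidase (Mpo) and neutrophil elastase (Elane). Later precursors make the specific granule proteins lipocalin 2 (Lcn2), lactoferrin (Ltf), cathelicidin (Camp) and neutrophilic granule protein (Ngp). Mature neutrophils that have entered tissue carry the proteins but little of this granule RNA. S100a8 and S100a9 encode the subunits of calprotectin, a calcium-binding alarmin that is abundant in the cytosol of neutrophils and is also made by inflammatory monocytes. Csf3r encodes the receptor for granulocyte colony-stimulating factor. Lcn2 is also made by macrophages in inflammation, so neither it nor the alarmins belong to neutrophils alone.

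Tumoricidal arrays gave higher signals than control arrays for both alarmins and for the specific granule gene Lcn2, by 1.88-fold to 2.33-fold. The mean log2 signals of both primary granule genes, whose signals were low on all arrays, lay below those of the controls. None of these differences passed the threshold over all probe sets. By limma's adjusted p under 0.05, 0 of 9 members were higher and 0 were lower, where 0.0341% and 0.0171% of 41053 probe sets were called. At an unadjusted p under 0.05 the members numbered 3 higher (S100a8, S100a9 and Lcn2) and 0 lower, against 4.92% and 3.07% of all probe sets. Differences were positive in 7 of 9 members and in 58.4% of probe sets. In 5 of 9 members (S100a8, S100a9, Lcn2, Ltf and Ngp) all tumoricidal arrays exceeded both control arrays, which held for 13.3% of probe sets. The opposite held in 0 members and in 7.6% of probe sets. The median log2 difference was 0.91 over the 9 members and 0.09 over all probe sets tested. In bulk samples, fewer cells of a type and less RNA per cell cannot be told apart.

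Signals below are deposited intensities scaled so that every array has the same median. Array medians before scaling ran from 15.4 to 22.6, the highest in control replicate 1, whose signals were multiplied by 0.797. All 14 macrophage marker genes lay above the floor for low signals on all 5 arrays. Between the 3' and 5' probe sets of Actb, a distance that grows as RNA degrades, the log2 difference was 0.56 in control replicate 1 and 0.28 to 0.32 on the other 4 arrays. For Gapdh it was -0.17 in control replicate 1, near the -0.21 of tumoricidal replicate 2, and -0.35 to -0.31 on the other 3 arrays. Spike-in control RNA (BioC) on tumoricidal replicate 3 and control replicate 2 gave 0.243 and 0.254 of the signal on the highest array, and 0.892 to 1.0 on the other 3 arrays. Values are therefore also given within the 3 high-BioC arrays and within the 2 low-BioC arrays, where each group has 1 array in the latter.

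The promoters of S100a8, S100a9 and Lcn2 are shown because these were the members with an unadjusted p under 0.05, a choice made after their values were seen. Each sequence is the 250 bases before the RefSeq transcript start (build GRCm38.p6), printed 5′ to 3′ on the gene's strand. Capitals mark matches on either strand to TTNNGNAA, a loose form of the motif of C/EBP factors, which act throughout granulocyte maturation. The capitals of S100a8 match on the printed strand, and those of S100a9 and Lcn2 match when read on the opposite strand.
S100a8, chr3:90668821-90669070, strand +: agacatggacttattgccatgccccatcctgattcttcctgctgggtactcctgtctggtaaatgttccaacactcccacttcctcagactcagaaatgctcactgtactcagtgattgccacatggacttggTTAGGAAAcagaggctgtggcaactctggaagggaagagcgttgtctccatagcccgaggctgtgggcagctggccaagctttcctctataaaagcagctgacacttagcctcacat
S100a9, chr3:90695722-90695971, strand -: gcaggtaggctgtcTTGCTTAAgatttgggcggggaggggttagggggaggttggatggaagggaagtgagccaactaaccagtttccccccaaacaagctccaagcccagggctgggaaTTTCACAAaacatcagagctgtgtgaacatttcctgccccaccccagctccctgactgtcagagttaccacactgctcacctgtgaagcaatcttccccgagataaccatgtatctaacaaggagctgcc
Lcn2, chr2:32387740-32387989, strand -: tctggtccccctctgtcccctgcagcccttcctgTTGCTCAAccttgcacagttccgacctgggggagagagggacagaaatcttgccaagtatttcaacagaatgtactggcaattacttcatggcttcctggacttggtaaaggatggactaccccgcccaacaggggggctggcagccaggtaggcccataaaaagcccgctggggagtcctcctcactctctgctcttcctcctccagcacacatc
S100a8 and S100a9 lie near each other on chromosome 3, on opposite strands. S100a8 held 1 match, S100a9 2 and Lcn2 1. S100a8 also held TATAAA on its own strand, 30 bases before the start. Windows of all 10 members were found in RefSeq, and 6 held TTNNGNAA on either strand (Lcn2, Ltf, Ngp, Retnlg, S100a8 and S100a9), against 36.8% of 32851 windows of that length. GAGGAAG, a form of the PU.1 motif, was in 5 of 10 (Csf3r, Elane, Lcn2, Mpo and S100a8), against 10.6%. A loose NF-kB motif (GGG, 4 free bases, TCC) was in 3 (Csf3r, Lcn2 and Mpo), against 16.5%. TTCNNNGAA, the motif of interferon-activated STAT factors, was in 0, against 7.02%. Matches of different motifs overlapped in 0 members. A match is a string of letters in the window and not a measured binding site.

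S100a8 gave signals of 4788, 3919 and 4627 on tumoricidal replicates 1 to 3 and 1635 and 3004 on control replicates 1 and 2. The lowest tumoricidal array thus stood above the higher control array, and control replicate 1 was the lowest of all. The group means were 4445 ± 462 (SD, n = 3) and 2319 ± 968 (SD, n = 2). The log2 difference was 0.999 (SE 0.33, 95% interval 0.17 to 1.83, limma adjusted p = 0.532). Within the high-BioC arrays it was 1.41 and within the low-BioC arrays 0.62.

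S100a9, whose product pairs with that of S100a8, followed the same order of groups. Its signals were 4967, 4803 and 5100 in the tumoricidal group and 2098 and 3309 in the control group. The tumoricidal arrays lay close together and the control arrays did not: the means were 4957 ± 149 (SD, n = 3) and 2704 ± 856 (SD, n = 2). The log2 difference was 0.91 (SE 0.28, 95% interval 0.21 to 1.61, limma adjusted p = 0.498), or 1.88-fold, with 1.22 and 0.62 within the high-BioC and low-BioC arrays.

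**Figure D1:**
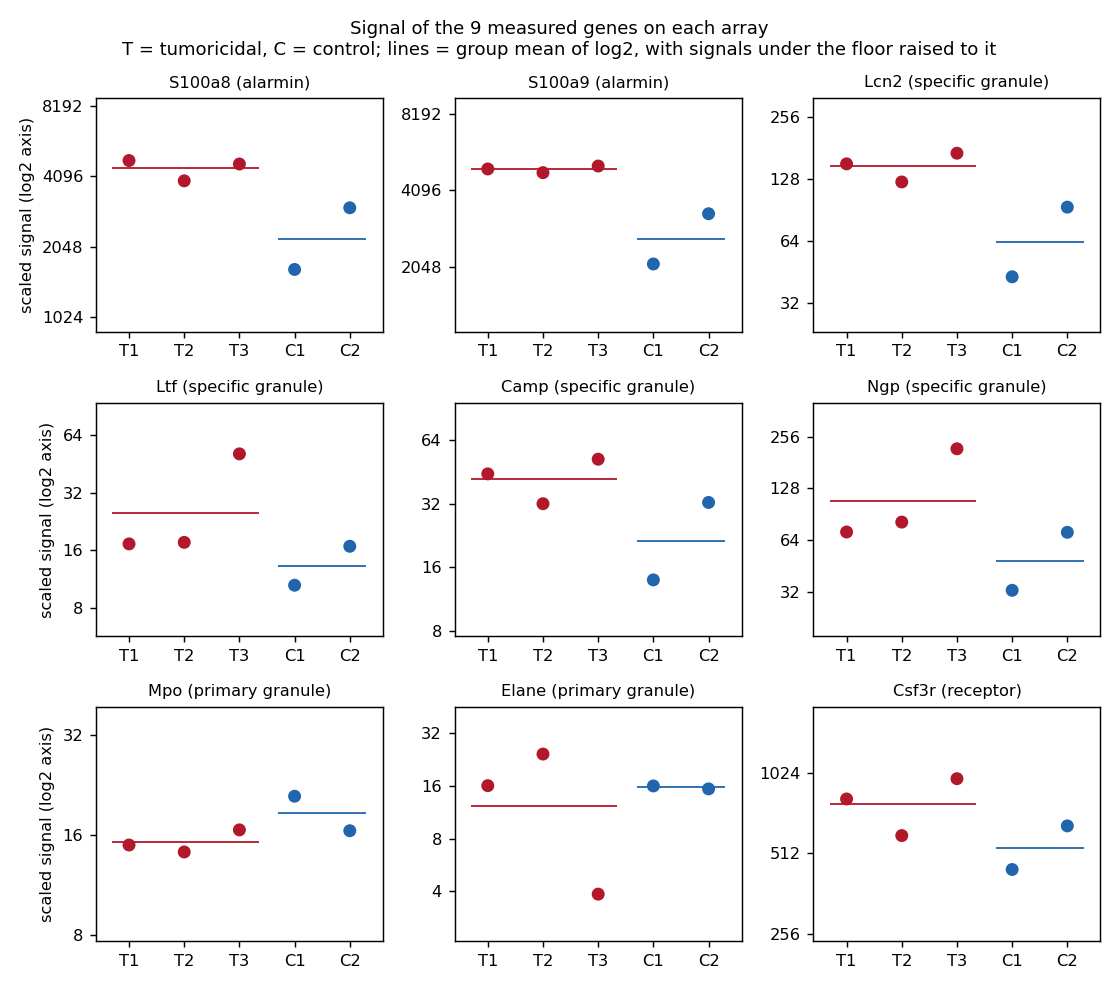
Scaled signal (vertical axis, log2 scale, 1 panel per gene) on each array (horizontal axis; T1 to T3 tumoricidal, C1 and C2 control), with lines at the group means of log2. S100a8 and S100a9 lie between 3919 and 5100 on all tumoricidal arrays and between 1635 and 3309 on both control arrays, Ltf and Ngp are highest on T3, and C1 is the lowest point for 7 of 9 genes.

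Among the specific granule genes, Lcn2, which encodes an iron-siderophore-binding protein, had signals of 152, 124 and 171 in the tumoricidal group. On the control arrays it gave 43.0 and 93.7. The groups did not overlap, and control replicate 1 again lay lowest. The means were 149 ± 23.7 (SD, n = 3) and 68.4 ± 35.8 (SD, n = 2), with a log2 difference of 1.22 (SE 0.40, 95% interval 0.24 to 2.20, limma adjusted p = 0.519), or 2.33-fold. Within the high-BioC and low-BioC arrays it was 1.68 and 0.87.

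Ngp, which encodes a cathelicidin-related granule protein, had signals of 71.5, 81.6 and 217 on tumoricidal replicates 1 to 3. It had 32.8 and 71.2 on control replicates 1 and 2. Tumoricidal replicate 3 stood apart from the other 4 arrays, and tumoricidal replicate 1 and control replicate 2 were nearly level, so the groups were apart by a small margin only. The log2 difference of 1.16 (SE 0.60, 95% interval -0.33 to 2.66, limma adjusted p = 0.753) was 0.66 without tumoricidal replicate 3 and 0.60 without control replicate 1. Ltf, the iron-binding lactoferrin gene, had the same shape. Its signals were 17.3, 17.6 and 51.1 in the tumoricidal group and 10.5 and 16.8 in the control group. Its log2 difference of 0.91 (SE 0.56, 95% interval -0.48 to 2.30, limma adjusted p = 0.793) was 0.39 without tumoricidal replicate 3 and 0.57 without control replicate 1.

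Camp, the gene of the antimicrobial peptide cathelicidin, had signals of 44.2, 32.0 and 51.9 on tumoricidal arrays and 13.9 and 32.4 on control arrays. Control replicate 2 lay level with tumoricidal replicate 2, so the groups overlapped. The log2 difference was 0.98 (SE 0.44, 95% interval -0.11 to 2.07, limma adjusted p = 0.692) and 0.37 without control replicate 1. Within the high-BioC and low-BioC arrays Camp differed by 1.43 and 0.68, Ngp by 1.22 and 1.61, and Ltf by 0.73 and 1.60. All 4 specific granule genes thus had positive differences in both sets of arrays, none of them past the threshold.

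The primary granule genes did not share these positive differences, but their signals were low. Mpo lay between the 45th and 53rd percentile of the probe sets on an array, and Elane between the 23rd and 56th. Ltf, with the 37.5th to 65.4th, was low as well. Whether these signals stood above background was not tested. Mpo, the gene of the enzyme that makes hypochlorous acid, had signals of 14.9, 14.2 and 16.6 on tumoricidal arrays and 20.9 and 16.5 on control arrays. Control replicate 1, the lowest array for 7 of the 9 members, was the highest for Mpo. The log2 difference was -0.29 (SE 0.25, 95% interval -0.90 to 0.32, limma adjusted p = 0.831), with -0.52 within the high-BioC arrays and 0.00849 within the low-BioC arrays. Elane, the gene of the serine protease neutrophil elastase, had 16.1, 24.4 and 3.86 in the tumoricidal group and 16.01 and 15.4 in the control group. Tumoricidal replicate 3 lay under the floor of 4.79 there, so the difference of -0.35 (SE 0.69, 95% interval -2.07 to 1.37, limma adjusted p = 0.908) has no fixed size. It was 0.31 within the high-BioC arrays and 0.33 without tumoricidal replicate 3.

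Csf3r, the growth factor receptor among the members, had signals of 817, 596 and 972 on tumoricidal arrays and 445 and 648 on control arrays. Tumoricidal replicate 2 lay below control replicate 2, so the groups overlapped. The means were 795 ± 189 (SD, n = 3) and 546 ± 143 (SD, n = 2), and the log2 difference was 0.54 (SE 0.33, 95% interval -0.27 to 1.35, limma adjusted p = 0.789). It was 0.65 and 0.59 within the high-BioC and low-BioC arrays and 0.27 without control replicate 1.

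**Figure D2:**
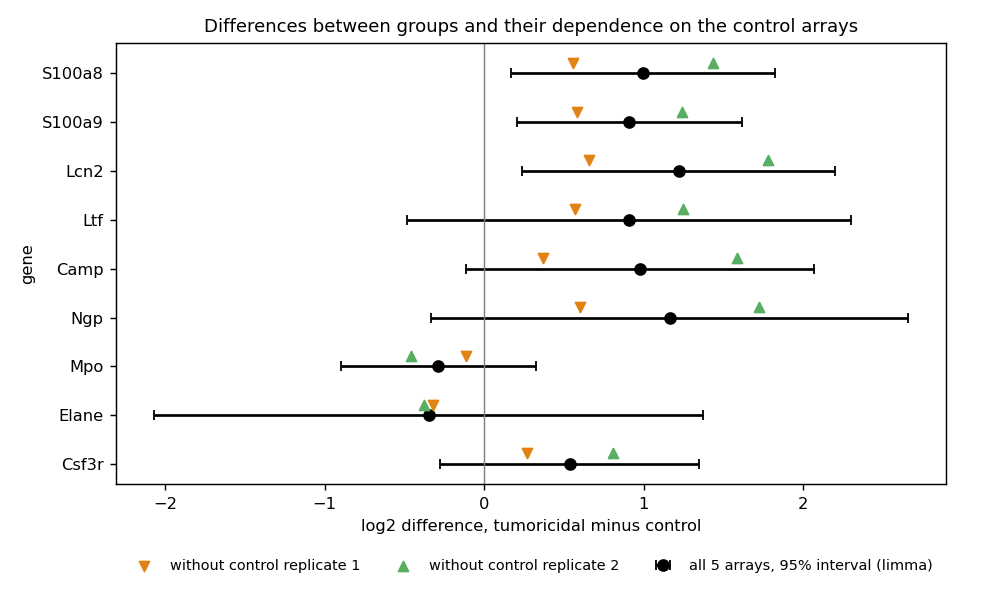
Log2 difference between tumoricidal and control arrays (horizontal axis) for the 9 genes (vertical axis), as black points with 95% limma intervals from all 5 arrays and as triangles with either control array left out. The intervals of S100a8, S100a9 and Lcn2 lie above 0 before adjustment over probe sets; the 7 positive differences are smaller without control replicate 1 and larger without control replicate 2.

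How far the groups lay apart depended on which control array they were set against. Control replicate 1 was the lowest array for 7 of 9 members, while it was the lowest for 28.0% of all probe sets and 35.4% of genes. Without it the difference of S100a8 was 0.56, of S100a9 0.58 and of Lcn2 0.66, and without control replicate 2 they were 1.44, 1.24 and 1.78. Without control replicate 1 the same 5 members had all tumoricidal arrays above the remaining control array, where 20.7% of probe sets did. Tumoricidal replicate 3 was the highest array for 6 of 9 members. The part of RNA quality in these differences was not tested. Scaling also mattered for size: the median of all probe sets was 0.09 with scaling to a common median, 0.00137 with quantile normalization and -0.11 with the deposited scaling. Relative to those medians S100a8 differed by 0.91, 0.66 and 0.88, S100a9 by 0.83, 0.59 and 0.79, and Lcn2 by 1.13, 1.12 and 1.10. The signs of all 9 members were the same under these 3 scalings.

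The medians of the other granule lists were below the median of the members, with single genes above it. Of the primary granule list, 6 of 8 genes were measured, with a median log2 difference of 0.10 against 0.13 over all 17074 genes. By limma's adjusted p 0 of 6 were higher and 0 lower, where 0.0527% and 0.0117% of genes were called. At an unadjusted p under 0.05, 1 was higher and 0 lower, against 6.12% and 2.79% of genes. In 1 gene (Cst7) all tumoricidal arrays lay above and in 1 (Ms4a3) all below the control arrays, which held for 17.0% and 6.51% of genes. Ms4a3, singled out after its values were seen, had signals of 16.7, 15.4 and 9.23 against 25.3 and 19.1. Its log2 difference was -0.72 (limma adjusted p = 0.734). Prtn3, the gene of proteinase 3, had a mean signal of 49.6 ± 13.7 (SD, n = 3) in the tumoricidal group. In the control group it had 77.7 ± 17.5 (SD, n = 2), a log2 difference of -0.66 (limma adjusted p = 0.739). Ctsg, the cathepsin G gene, lay under the floor on 3 of 5 arrays and its highest signal was 6.19. Cst7, which encodes the protease inhibitor cystatin F and is also made by lymphocytes and macrophages, differed by 1.87 (limma adjusted p = 0.105), with signals of 95.4, 110 and 98.9 against 29.3 and 26.2. Igsf6 and Serpinb1a differed by 0.24 and 0.08.

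All 14 genes of the specific and gelatinase granule list were measured. In either direction 0 were called, where 0.0527% of genes were called higher and 0.0117% lower. Their median was 0.32, and in 3 the tumoricidal arrays all exceeded the control arrays, near the 17.0% of genes in which this held. At an unadjusted p under 0.05, 3 were higher and 0 lower, against 6.12% and 2.79% of genes. The gelatinase gene Mmp9 had signals of 325, 153 and 194 against 158 and 455, and the collagenase gene Mmp8 had 103, 133 and 108 against 122 and 101. Neither separated the groups (log2 differences -0.33 and 0.04, limma adjusted p = 0.890 and 0.976). Pglyrp1, which encodes a peptidoglycan-binding granule protein and was singled out after its values were seen, had 64.7, 32.6 and 32.6 against 19.0 and 16.8. Its groups did not overlap (log2 difference 1.20, limma adjusted p = 0.512). Of the 14 differences 11 were positive, against 63.0% of genes, and 3 were negative. The latter were those of Mmp9, Cd177 (-0.39) and Padi4 (-0.71). Of genes that macrophages express as well, Cybb, the gene of the catalytic subunit of the phagocyte oxidase, differed by 0.92 (limma adjusted p = 0.411), the surface enzyme gene Bst1 by 1.26 (0.486 by the same test) and the lysozyme gene Lyz2 by 0.33 (0.821).

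All measured genes of the mature neutrophil list had higher mean log2 signals in the tumoricidal group with scaling to the common median. Of 21 listed, 14 were measured, and 14 of 14 had a positive difference, as did 63.0% of all genes. The list was chosen with earlier results of these data known. The median of its genes was 0.84. In 8 all tumoricidal arrays exceeded the control arrays, as in 17.0% of genes. At an unadjusted p under 0.05, 7 were higher, against 6.12% of genes, and 0 passed the adjusted threshold, against 0.0527%. The formyl peptide receptor Fpr2, which monocytes and macrophages also carry, had signals of 2857, 1949 and 2654 against 630.5 and 786.7. Every tumoricidal array was thus far above both control arrays (log2 difference 1.80, SE 0.28, limma adjusted p = 0.172). Cxcr2, the main chemokine receptor of neutrophils, had 252, 209 and 86.7 against 65.5 and 55.2 (log2 difference 1.47, SE 0.50, limma adjusted p = 0.546). Its signal was highest on tumoricidal replicates 1 and 2, whereas Ngp and Ltf were highest on replicate 3. Within the low-BioC arrays Cxcr2 differed by 0.65 and within the high-BioC arrays by 1.81. The decoy receptor gene Il1r2 differed by 0.91, Cd300lf by 0.87 and the lectin receptor gene Clec4d by 0.12. Clec4d was -0.25 with quantile normalization and -0.11 with the deposited scaling. The neutrophil surface gene Ly6g and the granulocyte factor gene Cebpe were not analysed here.

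No regulator or partner of the members passed the adjusted threshold, where 0.0527% of genes were called higher and 0.0117% lower. Of the transcription factors, 9 of 10 were measured with a median of 0.45. At an unadjusted p under 0.05, 2 were higher, against 6.12% of genes. These were Gfi1, a repressor needed for granulocyte maturation, and Irf8, a factor of monocytes and macrophages, both singled out after their values were seen. Gfi1 had signals of 19.9, 29.4 and 24.8 against 0.478 and 6.90, and its difference of 2.08 (limma adjusted p = 0.152) depends on the floor, as control replicate 1 lay under it. Irf8 had 1264, 1066 and 1483 against 572 and 672, a difference of 1.02 (limma adjusted p = 0.387). For both genes, among 4 of the 9 measured factors, every tumoricidal array lay above both control arrays, as in 17.0% of genes. Cebpb, a C/EBP factor of emergency granulopoiesis, differed by 0.31, Klf4 by -0.02 and Spi1, which encodes PU.1, by 0.45. Of the upstream cytokines and receptors, 13 of 14 were measured with a median of 0.09 and 0 calls. The cytokine gene Il1b differed by 0.31 and the macrophage growth factor receptor gene Csf1r by 0.30. Csf2rb, the shared receptor chain for granulocyte-macrophage colony-stimulating factor, differed by 0.91 (limma adjusted p = 0.394). Of the receptors and partners of the member proteins, 16 of 17 were measured with a median of 0.16 and 0 calls, and Fpr2, given above with a difference of 1.80, is in this list too. The integrin chain Itgb2 differed by 0.60, the oxidase subunit gene Ncf4 by 0.28 and the co-receptor gene Cd14 by -0.18.

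Other S100 genes, 9 of 12 measured, had a median of 0.42, with 8 positive differences, against 63.0% of all genes. They had 0 calls, where 0.0527% of genes were called higher and 0.0117% lower. S100a6, S100a10 and S100a4, which are expressed by many cell types, differed by 0.52, 0.39 and 0.18, less than S100a8 and S100a9; whether they differed from these was not tested. Over all 5 arrays, chemokines that attract or come from myeloid cells had negative differences, with 0 of 6 measured genes positive, against 63.0% of all genes. Their median was -0.49, with 0 calls. Within the low-BioC arrays, however, Cxcl1, Cxcl2 and Cxcl5 had positive differences (0.15, 0.25 and 0.57). Cxcl3, Ppbp and Pf4 had negative ones there (-0.17, -2.23 and -0.37). Cxcl1 had signals of 943 and 954 on tumoricidal replicates 1 and 2 and 6099 on replicate 3, against 4263 and 5502 in the control group. Ngp and Ltf were also highest on tumoricidal replicate 3, but were lowest on control replicate 1, where Cxcl1 was 4263. In 2 of the 6, Ppbp and Cxcl3, all tumoricidal arrays lay below both control arrays, as in 6.51% of genes. At an unadjusted p under 0.05, 1 was lower, against 2.79% of genes. Ppbp had 263, 91.2 and 133 against 658 and 622 (log2 difference -2.12, limma adjusted p = 0.317), and Cxcl3 differed by -0.47. Cxcl2 and Pf4 differed by -0.06 and -0.50.

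Each array was then placed by how far a list lay from its own mean over the 5 arrays, taking the median over the list's genes on the log2 scale. For the 9 members this position was 0.28, 0.06 and 0.53 on tumoricidal replicates 1 to 3 and -0.88 and -0.14 on control replicates 1 and 2. For the specific granule members it was 0.17, 0.03 and 1.05 against -1.23 and -0.15, and for the alarmins 0.44, 0.27 and 0.43 against -0.96 and -0.19. For the primary granule members, whose signals were low, it was 0.05, 0.32 and -0.75 against 0.29 and 0.09. Control replicate 1 and tumoricidal replicate 3 were the extremes of the specific granule genes, and the other 3 arrays lay within 0.17 of their mean. For 8 neutrophil markers other than the members the position was 0.32, 0.10 and 0.04 against -0.56 and -0.16. The summed signal of these 8 was 1195, 868 and 876 against 663 and 903. Their positions thus did not overlap between groups, whereas their sums did.

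**Figure D3:**
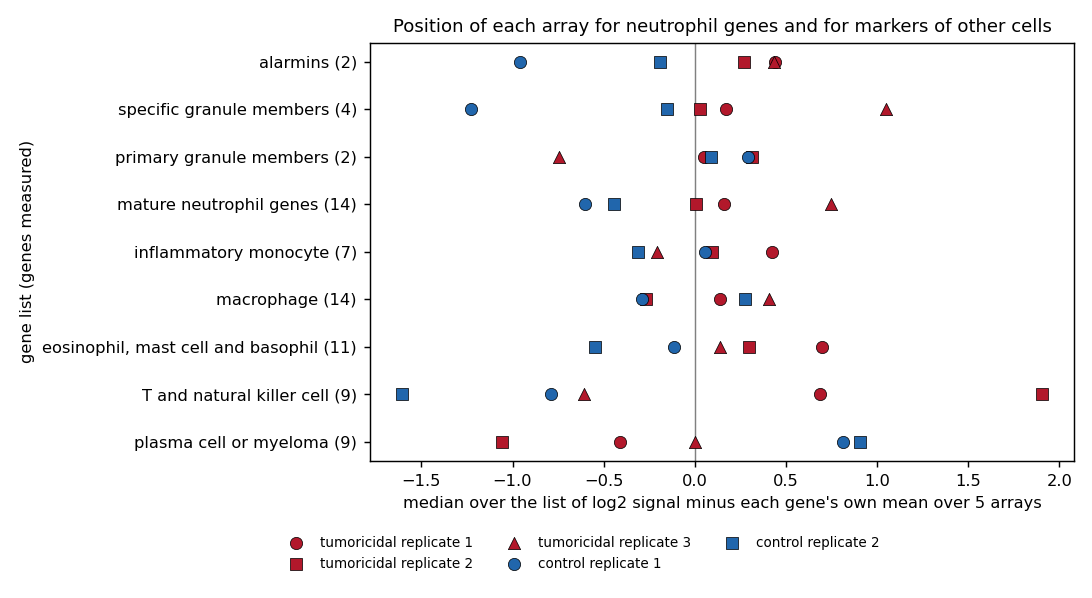
Median over each list (vertical axis, number of measured genes in brackets) of log2 signal minus each gene's own mean over the 5 arrays (horizontal axis), with 1 marker per array, red for tumoricidal and blue for control. Specific granule members run from -1.23 on control replicate 1 to 1.05 on tumoricidal replicate 3, while primary granule members run from -0.75 to 0.32 with the groups mixed.

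Markers of other CD11b+ cells gave these values. The summed signal of 7 measured inflammatory monocyte markers of 10 was 19221 to 23319 in the tumoricidal group and 17779 to 18771 in the control group, with 0 genes at the floor on any array. The sums did not overlap, but only 4 of the 7 differences were positive, against 63.0% of genes, with a median of 0.15. Negative were Vcan (-0.43), Fn1 (-0.36) and F13a1 (-0.15). Plac8, among the 3 genes of highest mean signal in the list, had 6572, 4449 and 5179 against 2955 and 2812. In 1 of the 7, Plac8, all tumoricidal arrays exceeded the control arrays, as in 17.0% of genes. In 1, Fn1, all lay below (3072, 2914 and 3290 against 4097 and 3842), as in 6.51% of genes. The median position of the list over its genes, with 0.42, 0.09 and -0.21 against 0.06 and -0.31, overlapped between groups. The sum of 14 macrophage markers was 40510 to 63998 and 40103 to 56677, so the groups overlapped. Itgam, which encodes CD11b itself and was singled out as the gate of the sort, had 865, 466 and 1135 against 417 and 931 (log2 difference 0.31, limma adjusted p = 0.892). It was lowest on control replicate 1, as most members were. Eosinophil, mast cell and basophil markers, 11 of 12 measured, summed to 171 to 241 and 50.4 to 110, with 3 to 6 of 11 genes at the floor on an array. Of the 11 differences 8 were positive, against 63.0% of genes, and the median was 0.53. The 3 negative ones were those of Ccr3 (-0.63), Il5ra (-0.48) and Gata1 (-0.21). The 3 genes of highest mean signal were higher on every tumoricidal array than on either control array. This held for 4 of the 11 and for 17.0% of genes. Siglecf had 38.5, 37.0 and 38.5 against 10.5 and 5.80, Mcpt8 had 76.1, 49.4 and 58.3 against 7.49 and 0.30, and Kit had 33.5, 23.7 and 22.7 against 19.0 and 10.9. Mcpt8 lay under the floor of 4.79 on control replicate 2, so its difference has no fixed size. Limma's adjusted p was 0.141 for Siglecf, 0.061 for Mcpt8 and 0.634 for Kit. In either direction 0 of the 11 were called, where 0.0527% of genes were called higher and 0.0117% lower.

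Markers of granulocyte and monocyte precursors, 8 of 9 measured, summed to 491 to 549 in the tumoricidal and 490 to 592 in the control group, and the groups overlapped. T and natural killer cell markers, 9 of 12 measured, summed to 722 to 3577 and 176 to 508, with a median difference of 2.09 against 0.13 over all genes. Of these 9 differences 8 were positive, against 63.0% of genes. Gzma was 1904, 2318 and 549 against 369 and 97.5, Prf1 was 205, 325 and 55.3 against 42.8 and 30.8, and Cd3d was 22.8, 397 and 20.8 against 30.03 and 11.3. The Cd3d difference of 1.64 was 0.24 without tumoricidal replicate 2. Plasma cell and myeloma markers, 9 of 10 measured, summed to 3922 to 5161 and 5928 to 6804, with a median difference of -1.23. Of these 9 differences 3 were positive and 6 negative. Both lists had 0 calls, where 0.0527% of genes were called higher and 0.0117% lower. Fibroblast and endothelial markers (7 of 7) summed to 992 to 3008 and 1447 to 2443, and keratinocyte markers (5 of 5) to 63.0 to 94.98 and 56.4 to 66.7. The part of these cells in the differences of the members was not tested.

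Among the members, S100a8 and S100a9 had the most similar profiles over the 5 arrays, with a root mean square distance of 0.11 on the log2 scale after each gene was centred on its own mean. Lcn2 and Camp followed with 0.14. Such closeness was not unique to this pair: 13 of the 8537 genes whose mean signal was above the median of genes lay as near to S100a8 as S100a9 did. The nearest genes were Tmem192 (0.06) and Capg (0.07) to S100a8, Psmd10 (0.04) and Scap (0.06) to S100a9, Sdhd (0.10) and Ift172 (0.10) to Lcn2, and Uqcr10 (0.03) and Cpne2 (0.06) to Camp. Those of Ngp were Cd200r4 (0.16) and Cpq (0.20), those of Ltf were Ralgds (0.11) and Mcoln2 (0.14), those of Csf3r were Colgalt1 (0.03) and Cep70 (0.04), and those of Mpo were Dot1l (0.03) and Ppan (0.04). Elane had 1 array under the floor and was not searched.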

How the data were processed

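The deposited values of the 5 arrays are linear signal intensity, 1 per probe set. Biotinylated cRNA was made by the Affymetrix protocol, per the labels' protocols. The software, probe summary and scaling behind the signals are not given in the labels. The mean after trimming 2% at either end was 100.0 on each array.

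Each array was scaled to the common median, 64 control probe sets were removed, signals under the pooled 25th percentile (4.79) were raised to it and log2 was taken. Of the probe sets, 3984 lay at this floor on every array and were left out. The other 41053 were compared with limma 3.58.1 in R 4.3.3 (lmFit and eBayes, two-sided, no covariate, Benjamini-Hochberg adjusted p under 0.05). A check on simulated data planted changes larger than those of the members, in probe sets of above-median signal only. It therefore cannot show whether differences of the members' size would be called. Signals of different probe sets also depend on probe binding, so levels of different genes are not compared. A list's summed signal adds them and mostly follows its brightest probe sets. No counts exist, so the number of arrays limits precision.

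Gene names came from the platform annotation. A gene outside the members is its 1-symbol probe set of highest mean. Of the listed genes, 14 had no probe set under their symbol, 7 only probe sets with several symbols, and 3 lay at the floor. Lists are described by counts and medians. Named genes were all members, the 3 of highest mean signal in each list, any called gene, and 7 fixed genes. Outside this rule, Ms4a3, Pglyrp1, Cd177, Padi4, Gfi1, Irf8, Ppbp, Cxcl3, Cxcl5, Vcan, Itgam, Ccr3, Il5ra and Gata1 were named with their values seen. Lists of macrophage, precursor, plasma, stromal and keratinocyte markers are given mainly as sums. Monocyte markers are given as sums with single genes. Members and lists were chosen with earlier results of these data known. Alternatives were 15: scaling, floor, filter, variance model, probe set averaging, the replicate number or the BioC split as a block, and each array left out.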

Additional observations from a re-analysis of the deposited data

How the results depend on the processing

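No member was called under any of the 15 alternatives. At an unadjusted p under 0.05 the number of members with a higher tumoricidal signal was 3 in the main setting, 0 without tumoricidal replicate 1, without tumoricidal replicate 3 and with the replicate number as a block, 1 without control replicate 1, and 6 with the BioC split as a block. Of 134 values of members under alternatives, 131 kept their sign; the 3 others were of Elane: 0.054 with the floor at the 40th percentile, 0.33 with the replicate block, and a range of -0.84 to 0.33 over arrays left out. Listed companion genes called higher numbered 0 in the main setting, 2 among probe sets above the median, 2 with trend and robust variances and 1 with probe sets averaged per gene; the unadjusted count was 14, and limma was the only tool run. Members with every tumoricidal array above every control array numbered 5, 6 with quantile normalization, 5 with the deposited scaling (Camp in place of Ngp) and 5 to 7 over arrays left out. The opposite held for 0 members in the main setting, and for 1, Mpo, with the deposited scaling, without tumoricidal replicate 3 and without control replicate 2.

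Deviations from group means correlated at 0.023 for the arrays numbered 1 and -0.237 for those numbered 2. For the 2 low-BioC arrays, tumoricidal replicate 3 and control replicate 2, the value was 0.262. With 2 control arrays the control deviations are exact opposites, so these values cannot settle whether same-numbered arrays were paired. With the replicate block, tumoricidal replicate 3 has no partner, and S100a8 differed by 0.97, S100a9 by 0.89, Lcn2 by 1.11, Ltf by 0.39 and Ngp by 0.66; no probe set of 41053 was called, with 14 higher and 7 lower in the main setting. The share of unadjusted calls that were higher was 61.6% in the main setting, 50.4% with quantile normalization and 31.9% with the deposited scaling.

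Small differences of other genes changed sign, and the cause was not tested. Quantile normalization gave Cebpb -0.034, Clec4d -0.25, Igsf6 -0.016, Mmp8 -0.11, Ncf4 -0.090, S100a4 -0.19 and Serpinb1a -0.10. The deposited scaling gave Clec4d -0.11, Mmp8 -0.19, S100a4 -0.044 and Serpinb1a -0.15. The replicate block gave Clec4d -0.15 and Ctsg -0.00117, the BioC split as a block Cxcl2 0.00195 and Klf4 0.039, and averaging of probe sets Serpinb1a -0.12. Over arrays left out, Cd14 ran from -0.54 to 0.10, Clec4d from -0.25 to 0.49, Ctsg from -0.00117 to 0.18, Cxcl2 from -0.24 to 0.10, Itgam from -0.27 to 0.88, Klf4 from -0.22 to 0.14, Mmp8 from -0.10 to 0.17, Mmp9 from -1.10 to 0.43, S100a4 from -0.12 to 0.50 and Serpinb1a from -0.27 to 0.43.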
